A study of Rattus norvegicus with 32 samples.

Results

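Collagens are the triple-helical proteins that give the extracellular matrix of the heart its strength, and their transcripts were followed here in the left ventricle of septic rats. The collagen genes were taken as all array probes, control probes left out, whose gene name in either of the 2 annotation versions of the scanner files is Col, a type number, the letter a and a chain number. This rule found 82 probes of 44 genes among 45598 probes of 34064 genes. The arrays came from 32 male and female Wistar rats aged 9 to 12 weeks, with 1 array per rat. In each sex there were 5 sham rats, 5 rats with cecal ligation and puncture (CLP), in which the cecum is tied off and pierced so that gut bacteria cause peritonitis and sepsis, and 6 rats with CLP plus landiolol. Landiolol, which selectively blocks β1 adrenoceptors and is broken down within minutes, was infused at 0.1 mg/kg/min from 1 h after CLP, and the other groups received a similar volume of saline. All rats had buprenorphine for pain before surgery, and hearts were imaged in vivo and perfused ex vivo before they were frozen at 20 h, so every group shares these steps.

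Fibroblasts make most of the interstitial collagen of the heart, above all the fibrillar types I and III, which are laid down with type V, held apart by surface collagens such as type XIV and linked to cells by the beaded filaments of type VI. Type IV forms the sheet of the basement membrane around cardiomyocytes and capillaries, and types XV and XVIII sit at the border of that sheet and the interstitium. Chains are hydroxylated, folded and glycosylated in the endoplasmic reticulum, trimmed by propeptidases and cross-linked by lysyl oxidases outside the cell.

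Sequences are shown for a few collagens that are described below. The first pair holds bases before the RefSeq start sites (build GRCr8) of Col1a2, a chain of type I collagen, and Col15a1, the chain of type XV collagen, both lower after CLP in males below. Col1a2 is shown at chr4:33518307-33518426 on the plus strand, from 250 to 131 bases before its start site, and Col15a1 at chr5:66297426-66297545 on the plus strand, from 120 bases before it to 1 base before it. Capitals mark the letters TATAA, and in Col1a2 also ATTGG, the reverse complement of CCAAT.
Col1a2: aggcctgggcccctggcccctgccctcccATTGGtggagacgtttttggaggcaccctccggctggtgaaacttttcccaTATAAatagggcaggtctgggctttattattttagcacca
Col15a1: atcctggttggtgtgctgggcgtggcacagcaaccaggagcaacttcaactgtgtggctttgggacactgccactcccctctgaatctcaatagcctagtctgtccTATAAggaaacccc

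Col4a1 and Col4a2, the main type IV chains, are transcribed in opposite directions from start sites with only 76 bases between them, which are shown in full (GRCr8, chr16:84885521-84885596, plus strand) because the levels of this pair are compared below. Capitals mark CCGCCC, the reverse complement of GGGCGG.
Col4a1 and Col4a2: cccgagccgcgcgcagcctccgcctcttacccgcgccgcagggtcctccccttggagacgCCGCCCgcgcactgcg

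The collagen helix is built of triplets that each begin with glycine, so probes inside a helical stretch carry GGN codons at a fixed spacing. A run of at least 4 such codons without a stop was found in 8 of the 82 probes, from 7 genes. The probe that stands for Col14a1 (type XIV) and the dimmer of 2 probes for Col4a5 (the α5 chain of type IV) are shown. Both carry results below. Capitals mark the glycine codons of the longest such run, and earlier glycine codons of Col14a1 in the same frame stay in lower case.
Col14a1: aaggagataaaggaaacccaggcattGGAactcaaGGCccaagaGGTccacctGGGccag
Col4a5: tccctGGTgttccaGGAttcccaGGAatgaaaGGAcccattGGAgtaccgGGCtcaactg

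The gene names were mostly but not always the same in the 2 annotation versions. Of the 82 probes, 53 were named as a collagen in both and 29 in only 1, among them the probes that stand for Col6a6, Col4a2 and Col4a5. Each gene was described by its brightest probe, and 24 genes had over 1 probe. In the build of the scanner files, rn4, the probe for Col1a1 lies at chr10:83638177-83638236, that for Col3a1 at chr9:44317465-44317524, that for Col15a1 at chr5:63930574-63930633 and that for Col6a6 at chr8:110792438-110792497; the files do not say whether a probe lies in a coding exon or a UTR. Tested were 32 collagen genes in males and 33 in females, 34 in either sex, because a probe was kept where 80% or more of the arrays in some group read it as well above background. The 10 genes tested in neither sex were Col6a4, Col6a5, Col8a2, Col9a2, Col10a1, Col11a1, Col23a1, Col25a1, Col26a1 and Col28a1. Of the 44 genes, 26 were well above background on all 32 arrays and 3 on none. Levels are log2 intensities normalised within a sex, so they are not compared between genes or between males and females.

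On the arrays, 50.3% to 67% of probes were well above background, the median processed signal was 19.2 to 61.3, and no spot was saturated. The first female slide was extracted with another version of the scanner protocol than the other slides. All groups of a sex were on both of its slides, but males and females were on different slides. In females, each sham array lay in the first row of its slide and each CLP plus landiolol array in the second, so for that comparison row and group cannot be told apart except through the CLP arrays, of which 3 lay in the first row and 2 in the second. Relative to the sham mean of the sex, the summed signal of 6 cardiomyocyte markers stayed between 85.9% and 104% on all arrays. The sum of 5 fibroblast markers was 99.4% to 175% in male CLP rats and 98.5% to 175% in female CLP rats, against 90.7% to 115% and 74.9% to 121% in sham rats. Single fibroblast markers went both ways, Tcf21 and Dcn being positive and the other 3 of the 5 negative in each sex, with a median log2 fold change of -0.36 in males and -0.20 in females. The sum of 5 mural cell markers was 53.4% to 73.8% in male CLP rats against 74.5% to 136% in male sham rats, that of 4 macrophage and monocyte markers 166% to 279% against 82% to 116%, and that of the 2 measured of 4 neutrophil markers 381% to 2880% against 72.6% to 113%. That of 2 Schwann cell markers was 16.2% to 61.2% against 51.4% to 134%, and that of 5 endothelial markers 96.2% to 132% against 88.3% to 117%. The sum of 2 atrial markers was 18.6% to 74.6% in male CLP against 30.9% to 283% in male sham rats, with overlap. For females the atrial sum was 61.8% to 311% in CLP against 36.8% to 168% in sham rats. In female CLP against female sham rats, the sums were 65.1% to 91% against 72.6% to 117% for mural, 160% to 213% against 92.2% to 122% for macrophage and monocyte, 476% to 1430% against 46.4% to 161% for neutrophil and 28.9% to 57.5% against 87.5% to 123% for Schwann cell markers. The part of these shifts in the collagen results was not tested.

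CLP was compared with sham to see which collagen transcripts differ in the septic heart. In males, 11 of the 32 collagen genes tested were lower in CLP than in sham rats at a false discovery rate (FDR) of 1% and 0 were higher, where over all 19512 genes tested 4.29% were lower and 3.95% higher. The change was negative for 27 of the 32, with a median log2 fold change of -0.56 against 0 over all genes. The 32 include Col17a1 and Col22a1, which were kept through the sham arrays alone. Each was well above background on 4 of 5 sham arrays, against 1 of 5 (Col17a1) and 3 of 5 (Col22a1) CLP arrays. For both, the filter favours a negative change. The CLP and sham arrays did not overlap, CLP being lower, for 12 collagen genes, against 6.73% of all genes. The lower genes were the type I chains Col1a1 and Col1a2, the type III chain Col3a1, 3 further fibrillar chains (Col5a1, Col5a3 and Col27a1), the type VI chains Col6a3 and Col6a6, Col15a1, Col14a1 and Col8a1. In whole left ventricle, fewer cells that make a collagen and less of its RNA in each cell cannot be told apart.

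**Figure D1:**
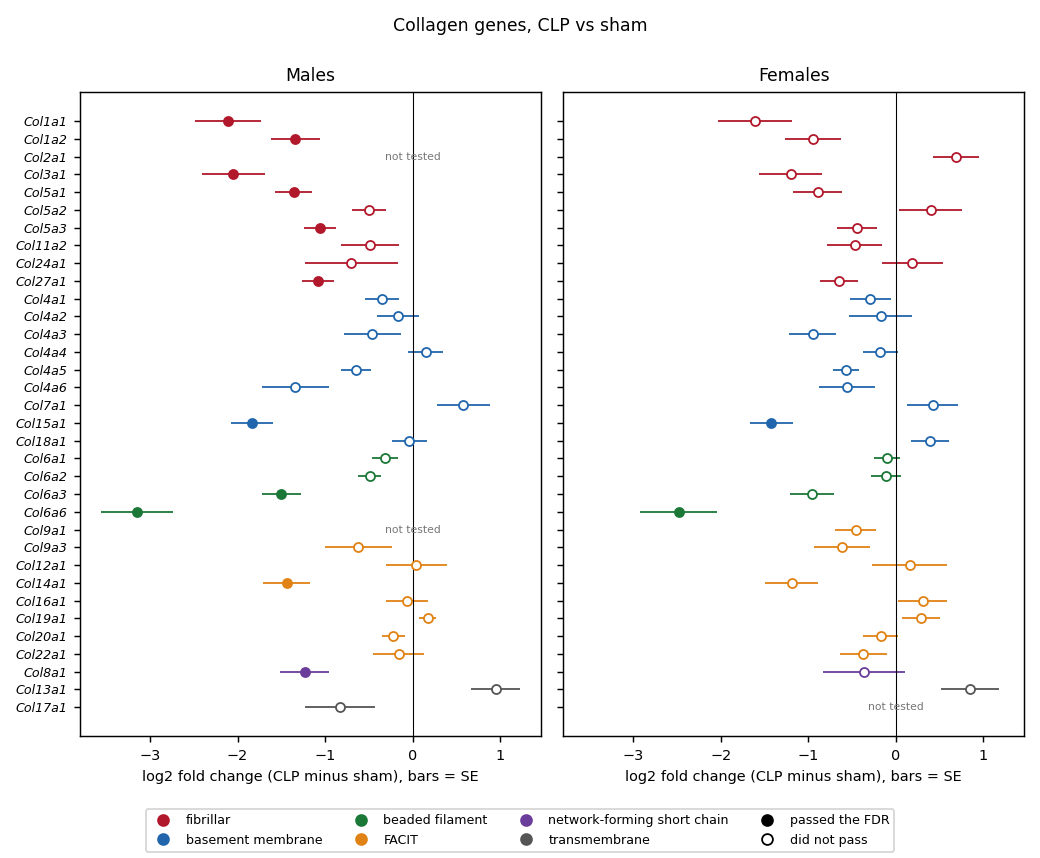
Log2 fold change of each tested collagen gene in CLP against sham rats (x axis, bars are standard errors), grouped by collagen class, for males on the left and females on the right; filled points passed the FDR of 1%. In males 11 filled points lie to the left of 0, from -1.06 to -3.15, and in females 2, at -1.42 and -2.48.

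The fibrillar chains shared a direction. All 9 tested in males were lower in mean after CLP, with a median of -1.08, and 6 passed the FDR. Col1a1 read 13.44, 13.39, 13.69, 13.18 and 13.00 (log2) on the 5 male sham arrays and 11.31, 11.78, 9.57, 11.89 and 11.61 on the 5 CLP arrays. Every CLP array was below every sham array, and 1 CLP array, replicate 3, was more than 1.5 below the rest. The change was -2.11 (SE 0.38), a level 4.32-fold lower (adjusted p = 0.00154, limma). A second Col1a1 probe gave -2.16 (adjusted p = 0.00063, limma).

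Col1a2, the other type I chain, read 15.00, 15.04, 15.26, 14.89 and 14.77 on the male sham arrays and 13.34, 14.10, 12.59, 14.23 and 14.03 on the CLP arrays, again without overlap. It was 2.53-fold lower (log2 fold change -1.34, SE 0.28, adjusted p = 0.0039, limma). Col3a1, whose type III fibrils are finer and more compliant, read 14.60, 14.21, 15.30, 14.29 and 14.11 in sham and 12.23, 12.90, 11.15, 12.97 and 13.03 in CLP males. The groups were separate, and the level was 4.14-fold lower (log2 fold change -2.05, SE 0.36, adjusted p = 0.00129, limma). For both genes the lowest CLP array was the same replicate 3 that was lowest for Col1a1.

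Type V collagen nucleates fibrils and limits their diameter. Its α1 chain, Col5a1, read 11.60, 11.57, 12.03, 11.51 and 11.48 in male sham and 10.33, 10.48, 9.51, 10.67 and 10.39 in male CLP rats, a 2.57-fold lower level with separate groups (log2 fold change -1.36, SE 0.21, adjusted p = 0.000481, limma). Its second probe gave -1.40 (adjusted p = 0.000132, limma). Col5a3, the α3 chain, went from 11.80 ± 0.24 to 10.74 ± 0.29 (SD, n = 5 each), a log2 fold change of -1.06 (SE 0.18, adjusted p = 0.00113, limma). Col5a2, the α2 chain, did not pass, at -0.50 (SE 0.19, adjusted p = 0.0883, limma). Col27a1, a fibrillar chain best known from cartilage, read 9.55, 9.21, 9.28, 9.35 and 9.24 in sham and 8.84, 8.18, 8.15, 7.98 and 8.07 in CLP males, where replicate 1 was the highest. Its change was -1.08 (SE 0.18, adjusted p = 0.000835, limma), and its second probe, at -1.13, missed the FDR (adjusted p = 0.0108, limma). The 2 fibrillar chains left, Col11a2 and Col24a1, had changes of -0.49 and -0.70 and did not pass.

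Among the chains of type VI collagen, which forms beaded filaments between cells and fibrils, Col6a6 had the greatest change of any collagen tested in males. It read 9.57, 9.27, 9.96, 9.14 and 8.29 on the male sham arrays and 6.34, 6.98, 5.14, 5.47 and 6.53 on the CLP arrays. The lowest sham array was thus still above the highest CLP array, and the level was 8.88-fold lower (log2 fold change -3.15, SE 0.41, adjusted p = 0.000129, limma). The only other of its 6 probes that was tested was well above background on 4 of 5 sham and 0 of 5 CLP arrays, so it was kept through the sham arrays alone and no fold is given for it. Col6a3 read 13.14, 13.43, 13.76, 13.42 and 13.54 in sham and 12.08, 12.45, 11.19, 11.70 and 12.36 in CLP males, without overlap and 2.83-fold lower (log2 fold change -1.50, SE 0.22, adjusted p = 0.000272, limma). Of its 3 other probes, the 2 that were well above background on all male arrays were also lower past the FDR, at -1.30 and -1.40 (adjusted p = 0.00857 and 0.00172, limma). The remaining probe was above background on 5 of 5 sham but 1 of 5 CLP arrays, and no fold is given for it. Col6a1 and Col6a2, the chains that assemble with Col6a3, had smaller changes of -0.32 and -0.49 that did not pass (adjusted p = 0.171 and 0.0179, limma), though the Col6a2 groups did not overlap.

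Of the basement membrane collagens, 1 of 9 passed in males and their median was -0.35. Col15a1, found between the basement membrane and the fibrils of muscle and capillaries, read 13.71, 13.54, 13.95, 13.60 and 13.32 in sham and 11.51, 12.19, 10.85, 12.19 and 12.17 in CLP males. The gap between the groups exceeded 1 on the log2 scale, and the level was 3.58-fold lower (log2 fold change -1.84, SE 0.24, adjusted p = 0.000124, limma). The type IV chains did not pass. Col4a1 read 13.47, 13.22, 13.37, 13.36 and 13.63 in sham and 13.22, 13.03, 12.43, 13.39 and 13.22 in CLP males, with overlap and a change of -0.35 (SE 0.19, adjusted p = 0.234, limma). Col4a2 read 9.51, 10.03, 9.92, 10.43 and 10.05 in sham and 9.40, 10.03, 9.28, 10.46 and 9.89 in CLP males, the ranges lying nearly on each other, with a change of -0.17 (SE 0.24, adjusted p = 0.706, limma). The α5 chain Col4a5 was at -0.65 with separate groups (adjusted p = 0.0149, limma), and the α6 chain Col4a6 at -1.34 (SE 0.38, adjusted p = 0.0262, limma). Col18a1, the source of endostatin, was at -0.04 and Col7a1, the chain of anchoring fibrils, at 0.58.

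The surface collagens of fibrils (FACIT) and the short-chain collagens gave 1 lower gene each in males. Col14a1, on the fibril surface, read 7.99, 8.20, 8.36, 8.03 and 8.27 in sham and 5.84, 7.02, 6.21, 7.21 and 7.35 in CLP males. The groups were apart, and the level was 2.71-fold lower (log2 fold change -1.44, SE 0.27, adjusted p = 0.00182, limma). The 6 other FACIT genes tested lay between -0.62 (Col9a3) and 0.17 (Col19a1), and 0 of them passed. Col8a1, a short-chain collagen of vessel walls and endothelium, read 9.69, 9.20, 9.37, 8.41 and 9.13 in sham and 7.27, 8.09, 7.54, 8.12 and 8.64 in CLP males, where the ranges overlapped. It passed at -1.23 (SE 0.28, adjusted p = 0.00652, limma), but missed the FDR in 8 of the 16 fits that left out 1 male array, those without sham replicates 1, 2, 3 or 5 or without CLP replicates 1, 2, 3 or 4. Col8a1 also missed the FDR with no filter on dim probes (adjusted p = 0.0136, limma) and when the CLP and sham arrays alone were fitted (adjusted p = 0.0186, limma).

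Few probes went against the direction of these genes. Col13a1, a transmembrane collagen, was named after its values were seen because it had the highest change of any collagen tested in males, 0.95 (SE 0.28, adjusted p = 0.0305, limma). Its sham arrays read 5.48, 6.30, 5.08, 5.73 and 4.98 and its CLP arrays 7.0, 6.51, 6.64, 6.54 and 5.65, so that a single CLP array, replicate 5, lay within the sham range. Without that array it passed, at 1.15 (adjusted p = 0.00968, limma). The probes of Col19a1, a FACIT chain, disagreed with each other. The brightest was at 0.17 and did not pass, and another was well above background on 5 of 5 sham and 0 of 5 CLP arrays. For that probe, CLP was at least 2.84-fold lower, a bound from the sham mean of 5.17 against a background floor of 3.66 (measured CLP mean 3.48). It was kept through the sham arrays alone, where it was high, so its low CLP level is a description.

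All 11 lower genes were lower on both male slides, by -0.59 to -3.27. For 9 of the 11, all but Col1a2 and Col8a1, the call held in all 12 alternative settings and in all 16 fits without 1 array. Col1a2 missed the FDR without male sham replicate 3 (adjusted p = 0.0114, limma) and when the CLP and sham arrays alone were fitted (adjusted p = 0.0127, limma).

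**Figure D2:**
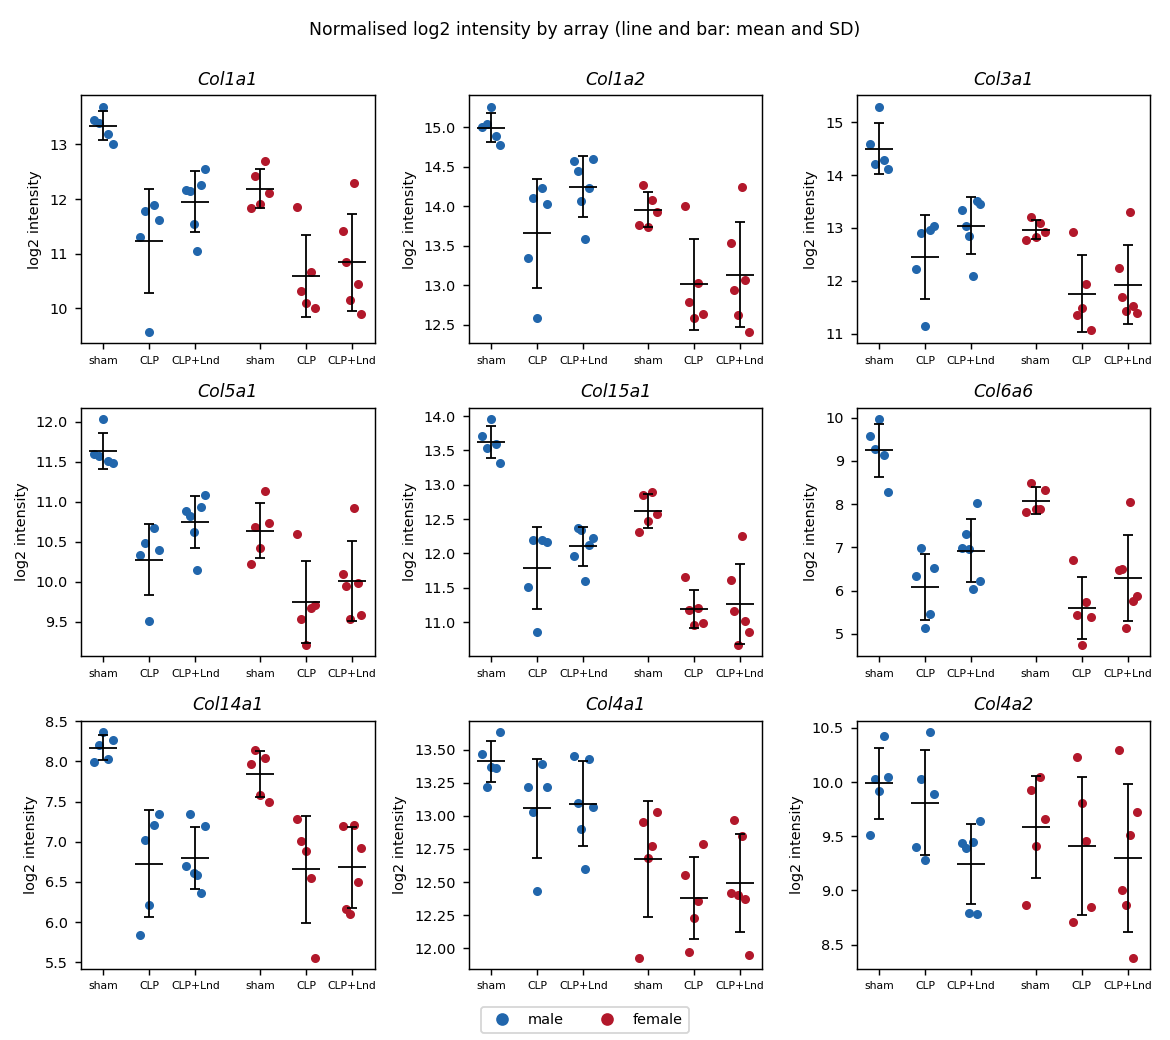
Normalised log2 intensity (y axis) of 9 collagen genes on every array, in males (blue) and females (red) by group (x axis; CLP+Lnd is CLP plus landiolol), with lines and bars for the mean and SD. In males the CLP points of Col1a1, Col1a2, Col3a1, Col5a1, Col15a1, Col6a6 and Col14a1 lie below all sham points, whereas those of Col4a1 and Col4a2 overlap the sham points; the y axes differ between panels.

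In females, fewer collagen genes passed the same test. Of 33 tested, 2 were lower in CLP than in sham rats and 0 higher at the FDR of 1%, where over all 19236 genes 1.88% were lower and 1.92% higher. The change was negative for 24 of the 33, with a median of -0.37 against -0.02 over all genes, and 13 had an unadjusted p under 0.05, as did 4504 of all 19236 genes. Among the 33, Col9a1, Col9a3 and Col22a1 were kept through the sham arrays alone, each well above background on 2 of 5 CLP arrays. For these the filter favours a negative change. Col2a1 was kept through the CLP arrays alone (4 of 5, against 2 of 5 sham arrays), which favours a positive one. The groups did not overlap, CLP being lower, for 5 collagens (Col6a6, Col15a1, Col14a1, Col6a3 and Col4a5), against 4.58% of all genes.

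The 2 genes that passed in females were also among the 11 of males. Col6a6 read 7.81, 8.49, 7.89, 7.88 and 8.34 on the female sham arrays and 6.71, 5.44, 4.75, 5.74 and 5.39 on the CLP arrays. It was 5.58-fold lower with no overlap (log2 fold change -2.48, SE 0.44, adjusted p = 0.00231, limma). Col15a1 read 12.31, 12.85, 12.47, 12.90 and 12.57 in sham and 11.65, 11.17, 10.96, 11.21 and 10.98 in CLP females, a separate and 2.68-fold lower level (log2 fold change -1.42, SE 0.25, adjusted p = 0.00243, limma). When slide row was added to the fit, both missed the FDR (adjusted p = 0.0151 for Col6a6 and 0.0184 for Col15a1, limma).

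The main fibrillar chains were lower in mean in CLP females but did not pass at 1%. Col1a1 read 11.83, 12.42, 11.91, 12.69 and 12.11 in sham and 11.85, 10.32, 10.09, 10.66 and 10.01 in CLP females. Only CLP replicate 1 reached the sham range, and the change was -1.61 (SE 0.42, adjusted p = 0.0239, limma). Col3a1 read 12.77, 13.20, 12.83, 13.09 and 12.93 in sham and 12.93, 11.36, 11.49, 11.94 and 11.07 in CLP females, a change of -1.20 (SE 0.36, adjusted p = 0.0491, limma). Here too replicate 1 alone reached the sham range. Col1a2 read 13.76, 14.27, 13.74, 14.08 and 13.93 in sham and 14.00, 12.79, 12.59, 13.03 and 12.64 in CLP females, with a change of -0.95 (SE 0.32, adjusted p = 0.078, limma).

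Female CLP replicate 1 was the highest of its group for 16 of the 31 collagens tested in both sexes. Without it, 4 collagens passed in place of 2, the added ones being Col1a1 at -1.92 (adjusted p = 0.0067, limma) and Col6a3 at -1.14 (adjusted p = 0.00695, limma). The same number passed without female CLP plus landiolol replicate 4. That array enters this comparison through the shared normalisation, the filter on probes and the shared estimate of spread. At an FDR of 5%, 8 collagens passed in females and all were lower. The type IV chains Col4a1 and Col4a2 were at -0.29 (SE 0.23) and -0.17 (SE 0.36) in females and did not pass (adjusted p = 0.509 and 0.84, limma).

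The difference between the sexes was tested directly as the female minus the male change. At an FDR of 5%, 0 of 34 collagens passed in CLP against sham, as did 0% of all 19969 genes. The difference was positive for 28 of the 34 collagens, with a median of 0.33 against -0.02 over all genes, and for all 10 fibrillar chains, with a median of 0.52. These counts include Col2a1, a fibrillar chain kept only in females and only through the CLP arrays. They also include Col17a1, kept only in males and only through the sham arrays. For both, the filter favours a positive difference. It favours a negative difference for Col9a1, kept only in females and only through the sham arrays. A positive value here stands for a less negative female change. Only Col5a2 had an unadjusted p under 0.05, with a difference of 0.90 (SE 0.42, adjusted p = 1, limma), where 750 of all genes had one. For Col1a1 the difference was 0.48 (SE 0.59) and for Col3a1 0.87 (SE 0.53), so for neither was a difference in response shown.

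CLP plus landiolol was compared with CLP to see whether collagen transcripts differ under the blocker. This comparison shares the CLP arrays with the one above, so values of both are set side by side and no relation between them is drawn. In males, 0 of 32 collagens passed at the FDR of 5% in either direction, against 0.907% of all genes higher and 0.723% lower. The change was positive for 24 of the 32, with a median of 0.30 against 0 over all genes, and 11 had an unadjusted p under 0.05, as did 2965 of all 19512 genes. The permutation test of SAM also called 0. Marker sums moved beside the collagens in this comparison. That of the mural cell markers was 74.5% to 111% of the sham mean on the CLP plus landiolol arrays against 53.4% to 73.8% on the CLP arrays, without overlap, and the mural marker Kcnj8 was higher past the FDR at 0.78 (adjusted p = 0.0315, limma). The neutrophil sum was 915% to 3110% against 381% to 2880%, the Schwann cell sum 31.8% to 144% against 16.2% to 61.2%, the fibroblast sum 82% to 173% against 99.4% to 175%, and the macrophage and monocyte sum 153% to 271% against 166% to 279%. Their part in the collagen values was not tested.

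Col6a3 had the smallest adjusted p of the collagens in this male comparison. On the 6 CLP plus landiolol arrays it ranged from 12.21 to 12.82 with a median of 12.80, against 11.19 to 12.45 on the CLP arrays, and the change was 0.69 (SE 0.21, adjusted p = 0.125, limma). Col1a1 ranged from 11.04 to 12.55 with a median of 12.16, and its change was 0.72 (SE 0.37, adjusted p = 0.38, limma). The groups overlapped for both. Col1a2 ranged from 13.58 to 14.60 (median 14.34), a change of 0.59 (SE 0.26, adjusted p = 0.315, limma), and Col3a1 from 12.09 to 13.51 (median 13.19), a change of 0.59 (SE 0.35, adjusted p = 0.449, limma). For these fibrillar chains the difference lay mainly on 1 slide. Col1a1 was 1.07 higher on the first male slide and 0.20 higher on the second, Col1a2 1.01 and 0.01, and Col3a1 0.98 and 0.02. The first slide holds CLP replicate 3, which was the lowest of its group for 20 of 31 collagens, and without that array the changes were 0.30 for Col1a1, 0.32 for Col1a2 and 0.26 for Col3a1. Col6a6, at 0.83 (SE 0.40), and Col4a6, at 0.95 (SE 0.37), did not pass either (adjusted p = 0.343 and 0.234, limma).

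Some collagens that were lower after CLP differed little between CLP and CLP plus landiolol males. Col14a1 was at 0.07 (SE 0.26), Col8a1 at -0.07 (SE 0.26) and Col15a1 at 0.32 (SE 0.23). Without some single arrays the sign of the first 2 turned, Col14a1 ranging from -0.15 to 0.23 and Col8a1 from -0.23 to 0.11. Col4a2 was at -0.57 (SE 0.23, adjusted p = 0.258, limma), and Col4a1, its partner chain, at 0.04 (SE 0.18).

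**Figure D3:**
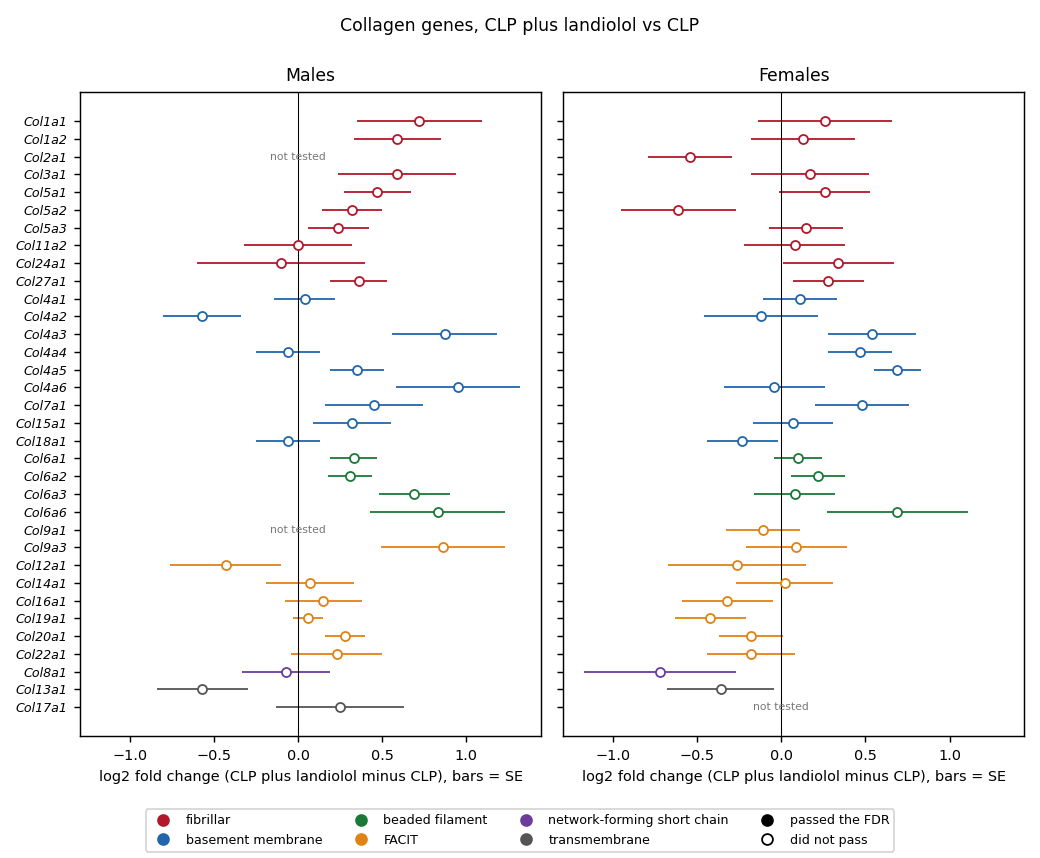
Log2 fold change of each tested collagen gene in CLP plus landiolol against CLP rats (x axis, bars are standard errors), by collagen class, for males on the left and females on the right. All points are open because none passed the FDR of 5%; in males 24 of 32 lie to the right of 0, and in females 20 of 33.

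Set against sham, which shares the sham arrays with the CLP comparison, CLP plus landiolol males had 5 of 32 collagens lower and 0 higher at the FDR of 1%, where over all genes 1.89% were lower and 2.53% higher. The 5 were Col6a6 at -2.32 (adjusted p = 0.00166, limma), Col15a1 at -1.52 (adjusted p = 0.000676, limma), Col14a1 at -1.37 (adjusted p = 0.00317, limma), Col8a1 at -1.29 (adjusted p = 0.00555, limma) and Col5a3 at -0.83 (adjusted p = 0.00736, limma). All 5 were also called in CLP against sham. Col1a1, at -1.39, and Col3a1, at -1.46, did not pass (adjusted p = 0.0244 and 0.0141, limma). Their CLP plus landiolol arrays nevertheless lay below all sham arrays, as they did for 10 collagens, against 3.83% of all genes. The second probes of Col1a1 and Col5a1 did pass, at -1.57 (adjusted p = 0.0067, limma) and -1.02 (adjusted p = 0.00184, limma). The call of Col5a3 was lost with slide as a term (adjusted p = 0.0104, limma), with no filter on dim probes or when only these 2 groups were fitted (each adjusted p = 0.0142, limma), and that of Col8a1 with no filter (adjusted p = 0.012, limma). The call of Col5a3 was also lost in 10 and that of Col8a1 in 9 of the 16 fits without 1 array, and that of Col14a1 without male sham replicate 3 (adjusted p = 0.0103, limma). The count of 5 became 9 without male CLP replicate 3, 2 without male sham replicate 3, and 3 without sham replicates 1, 2 or 5 or CLP plus landiolol replicates 1, 2, 3 or 4. SAM called 12 collagens in this comparison, 11 lower and 1 higher.

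In females, 0 of 33 collagens passed in CLP plus landiolol against CLP, where 0.0572% of all genes were higher and 0.0312% lower. The change was positive for 20 of the 33, with a median of 0.08 against 0.02 over all genes, and 3 had an unadjusted p under 0.05, as did 1809 of all 19236 genes. Col2a1, among the 33, was kept through the CLP arrays alone, which favours a negative change. The macrophage and monocyte marker sum was 219% to 285% of the sham mean on the CLP plus landiolol arrays against 160% to 213% on the CLP arrays, without overlap, whereas the neutrophil (542% to 3720% against 476% to 1430%), Schwann cell (31.4% to 123% against 28.9% to 57.5%) and fibroblast (93.1% to 178% against 98.5% to 175%) sums overlapped, as did the mural sums. Their part was not tested. Col1a1 ranged from 9.90 to 12.29 on the CLP plus landiolol arrays with a median of 10.64, against 10.01 to 11.85 on the CLP arrays, a change of 0.26 (SE 0.40, adjusted p = 0.906, limma). Replicate 4 of CLP plus landiolol was the highest of its group for 20 of 31 collagens, and without it the change of Col1a1 was -0.03 and that of Col3a1 was -0.11.

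Col4a5, an α chain of type IV collagen encoded on the X chromosome, was singled out after its values were seen because it was the only collagen whose groups did not overlap in this comparison, against 0.749% of all genes with CLP plus landiolol higher. Its brighter probe (rn4, chrX:36919794-36919853, minus strand) read 8.45, 8.02, 8.37, 8.26 and 8.55 on the CLP arrays and 8.76 to 9.26 on the CLP plus landiolol arrays, with a median of 9.02. The female sham arrays, at 9.15, 8.93, 8.65, 8.58 and 9.20, covered nearly the same range as CLP plus landiolol. The change against CLP was 0.69 (SE 0.14, adjusted p = 0.0876, limma) and did not pass, although SAM called it. It was 0.88 on one slide and 0.56 on the other. The dimmer Col4a5 probe, whose sequence with 6 glycine codons is given above, was well above background on 5 of 6 CLP plus landiolol and 0 of 5 CLP arrays. It was kept through the CLP plus landiolol arrays alone, so its fold of at least 1.96 (mean 4.85 against a floor of 3.88, measured CLP mean 3.45) is a description, with no test. When slide row was added to the fit, the brighter probe was at 0.61 (adjusted p = 0.552, limma). In males its change was 0.35 (SE 0.16, adjusted p = 0.323, limma), and the difference between the sexes was 0.34 (SE 0.21, adjusted p = 0.968, limma).

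Against sham, CLP plus landiolol females had 1 of 33 collagens lower and 0 higher, where 2.37% of all genes were lower and 3.17% higher, and 2 collagens, Col15a1 and Col14a1, had separate groups, against 4.43% of all genes. The gene that passed was Col15a1, which ranged from 10.67 to 12.26 on the CLP plus landiolol arrays with a median of 11.09, a change of -1.36 (SE 0.24, adjusted p = 0.00194, limma). Col6a6 was at -1.78 (adjusted p = 0.011, limma). With the row as a term, 0 passed and Col15a1 was far from the FDR (adjusted p = 0.368, limma). Without CLP plus landiolol replicate 4, 5 collagens passed, and without CLP replicate 1 or 5, 2 passed.

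The difference between the sexes in the response to landiolol was not past an FDR of 5% for any of 34 collagens, nor for any of all genes tested (0%). It was negative for 25 of the 34, with a median of -0.21 against 0.03 over all genes. Among the 34, Col2a1 was kept through the female CLP arrays alone, which favours a negative difference. An unadjusted p under 0.05 was reached by Col5a2, at -0.93 (SE 0.40), Col19a1, at -0.48 (SE 0.23), and Col20a1, at -0.47 (SE 0.22), each with an adjusted p of 0.968 (limma), and by 971 of all genes.

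Within groups, the fibrillar chain Col1a1 moved together with Col1a2, Col3a1 and Col5a1 from rat to rat. The other fibrillar chains were not examined in this way. The deviation of each of the 32 arrays from its group mean was taken for 6 pairs of collagens, with permutation tests within groups (two-sided, 100000 resamples) adjusted over the 6 pairs. For Col1a1 and Col1a2, Pearson's r was 0.96 and Spearman's rho 0.93 (each p = 1e-05, the smallest that 100000 resamples can give, adjusted 2e-05), and r was 0.94 without the 2 arrays of most extreme Col1a1. For Col1a1 and Col3a1, r was 0.94 and rho 0.92, and for Col1a1 and Col5a1 0.93 and 0.90, with the same p, and both r were 0.91 without the 2 arrays. All 3 relations held within each sex, where r was at least 0.92 on 16 arrays. The genes of a pair share each array's RNA, labelling and normalisation, and the part of these in r was not tested.

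The pairs of type IV genes that share a start region did not move together in this way. Col4a1 and Col4a2, which start 76 bases apart, had an r of 0.02 and a rho of -0.02 (permutation p = 0.935 and 0.941), with r at -0.24 without the 2 extreme arrays, 0.22 in males and -0.09 in females. Col4a3 and Col4a4, 412 bases apart, had an r of 0.23 and a rho of 0.24 (permutation p = 0.236 and 0.208, adjusted 0.354 and 0.312). Col4a5 and Col4a6, 1414 bases apart, had an r of 0.22 and a rho of 0.10 (permutation p = 0.343 and 0.615, adjusted 0.412 and 0.738). Col4a2 is measured by a single probe that only 1 annotation version names as a collagen. Col4a3, Col4a4 and Col4a6 were dim, with mean levels of 5.70, 6.53 and 5.76 on the 32 arrays normalised together. Col4a3 was well above background on 4 of 5 male CLP arrays, and Col4a6 on 4 of 5 CLP arrays in each sex. The part of noise near background in the r of these pairs was not tested.

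**Figure D4:**
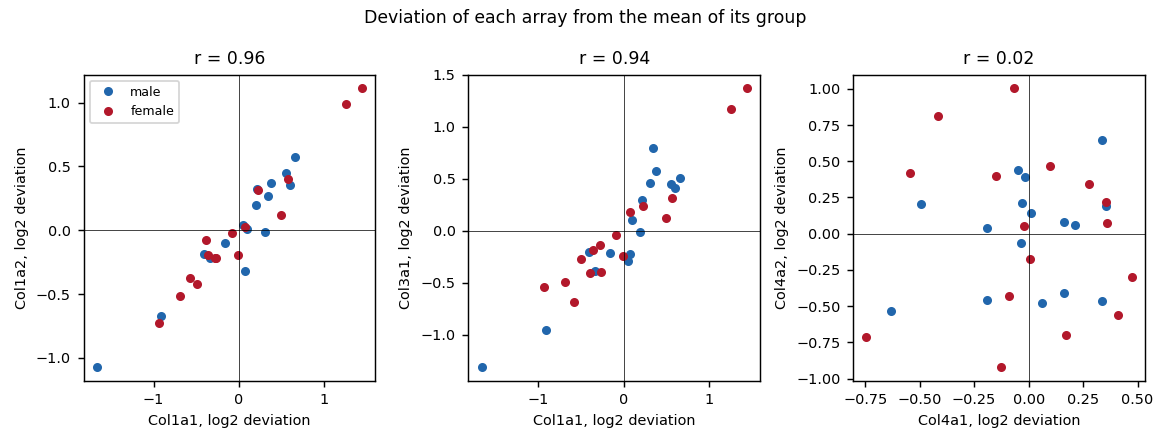
Deviation of each array from its group mean (log2) for Col1a1 against Col1a2, Col1a1 against Col3a1 and Col4a1 against Col4a2, in males (blue) and females (red), with Pearson's r above each panel. The first 2 panels line up along a rising diagonal (r of 0.96 and 0.94), and the third forms a cloud (r of 0.02).

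Promoters were searched for 3 short motifs, in the 250 bases before the RefSeq start and on both strands, for the 35 of 44 collagens with an entry in the RefSeq table. TATAA was found in 7 of the 35, or 20%, against 24.1% of 27457 promoters. Among the 8 lower genes of males with an entry it was found in Col15a1 and Col1a2, and in 2 of the 17 that were tested and not lower. CCAAT was found in 11 of the 35, or 31.4%, against 34.3%, among the 8 in Col1a2 and Col5a3, and in 4 of the 17. GGGCGG was found in 19 of the 35, or 54.3%, against 32.4%. It was in 5 of the 8 lower genes and in 11 of the 17 that were tested and not lower, so its share was close in both sets. A match gives letters only and says nothing of binding.

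The genes that process, cross-link and bind collagens were taken from fixed lists of 60 genes, of which 56 were tested in males and 55 in females. In males after CLP, 7 of 56 were lower and 1 higher, beside the 4.29% and 3.95% of all genes. Of 16 genes for chain modification and folding, 1 was lower, Colgalt2, a galactosyltransferase of hydroxylysine, at -1.39 (SE 0.18, adjusted p = 0.000114, limma). The prolyl hydroxylase subunit P4ha1 was at -0.17 (adjusted p = 0.725, limma) and the collagen chaperone Serpinh1 at -0.42 (adjusted p = 0.292, limma). Of 11 genes for propeptide removal and cross-linking, 3 were lower. These were the lysyl oxidases Loxl1, at -2.30 (SE 0.34, adjusted p = 0.000366, limma), and Loxl2, at -1.38 (SE 0.24, adjusted p = 0.00117, limma), and the procollagen N-propeptidase Adamts2, at -0.78 (SE 0.17, adjusted p = 0.00594, limma).

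Of 11 matrix proteins that bind fibrils, 10 had a negative change in males with a median of -0.54, and 2 passed. They were Lum, the proteoglycan lumican, at -1.89 (SE 0.45, adjusted p = 0.00945, limma), and Sparc, a collagen-binding matricellular protein, at -0.70 (SE 0.15, adjusted p = 0.00491, limma). Of 11 basement membrane partners, the laminin chain Lama4 was lower, at -0.68 (SE 0.12, adjusted p = 0.000989, limma), and the laminin chain Lama5 higher, at 0.73 (SE 0.16, adjusted p = 0.00624, limma). Of 7 collagen receptors, 0 passed and 4 had an unadjusted p under 0.05, as did 5705 of all 19512 genes. The fibroblast markers were mixed in the same comparison, with Lum lower, the transcription factor Tcf21 higher at 1.25 (adjusted p = 0.00451, limma), and Pdgfra at -0.40 and decorin (Dcn) at 0.87 not past the FDR.

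In females after CLP, 0 of 55 partner genes passed at 1% and 20 had an unadjusted p under 0.05, where 1.88% of all genes were lower, 1.92% higher and 4504 of 19236 had such a p. In CLP plus landiolol against CLP, 0 passed in either sex, with 11 in males and 6 in females at an unadjusted p under 0.05 (limma), beside 2965 of 19512 and 1809 of 19236 of all genes. Against sham, CLP plus landiolol males had 4 of these genes lower (Colgalt2 at -0.94, Loxl1 at -2.24, Loxl2 at -1.07 and Lama4 at -0.54), where 1.89% of all genes were lower, and females had Lama4 lower at -0.65 (adjusted p = 0.00592, limma), where 2.37% were.

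**Figure D5:**
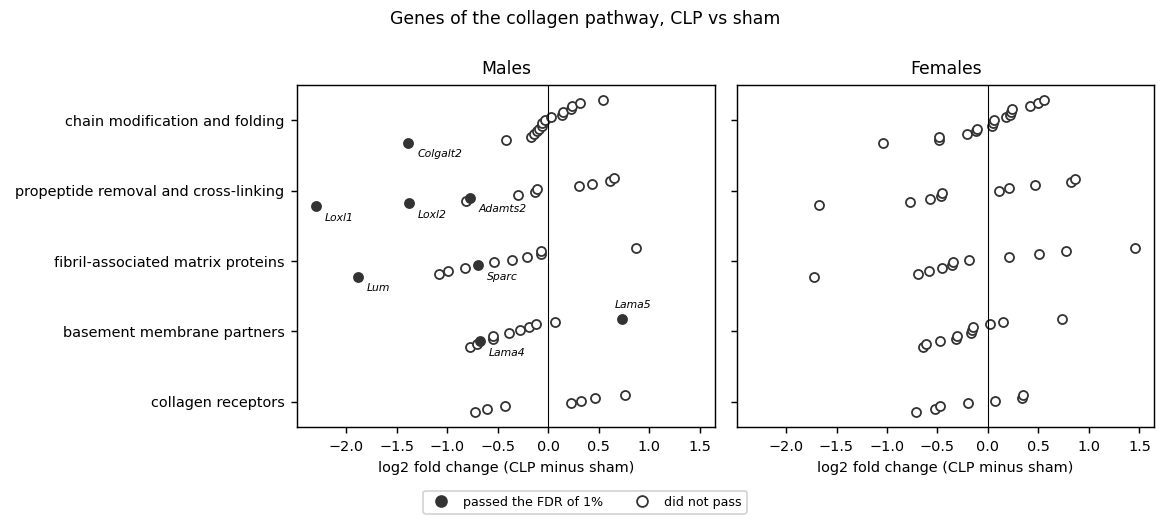
Log2 fold change in CLP against sham rats (x axis) of genes that modify, cross-link or bind collagens, by list (y axis), in males on the left and females on the right; filled points passed the FDR of 1% and are named. In males 7 named points lie left of 0 and Lama5 right of it, and in females no point is filled.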

How the data were processed

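RNA of each left ventricle was labelled with Cy3 and hybridised to 60-base rat arrays of 1 colour. The authors deposited, per array, the Agilent Feature Extraction (version 10.5 per the submitters' processing notes) processed signal, an intensity on a linear scale after background subtraction, and a table of log2 values that the authors normalised by quantiles and filtered. The intensity was used here, and the deposited log2 table as an alternative. Groups, sex and time came from the labels. Outlier spots were left out (213 probe values missing), log2 intensities of a probe's spots averaged, and arrays quantile normalised within a sex. Probes well above background on 80% of the arrays of 1 group were kept. The 16 arrays of a sex were fitted together with limma 3.58.1 in R 4.3.3 and p-values adjusted by Benjamini-Hochberg over all probes kept, at an FDR of 1% (against sham) or 5% (landiolol, sex differences). The study used SAM, an alternative here with 100 permutations. Sex differences were an interaction over 32 arrays normalised together. Rats are the replicates, so p-values measure the spread between these rats, and 5 or 6 arrays per group limit the precision.

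A gene is its probe of highest mean. Named with values were collagens called in a comparison within a sex, Col1a1, Col1a2, Col3a1, Col4a1 and Col4a2, and up to 4 called genes per partner list. Members and lists were chosen with earlier results of these data known. Probes with a bound are set against the lowest signal of probes well above background. The fit was tested on simulated data for male CLP against sham (25866 probes): 44 of 100 shifts of 1 and 89 of 100 shifts of 2 on the log2 scale were recovered, with 3 false calls. Simulated probes varied independently of each other and few were shifted, unlike in the data, so these rates need not hold there. The alternatives tried were a 75th percentile scaling, background correction by normexp (offset 50), other filters, the deposited table, joint normalisation, a fit of 2 groups, a trended prior, slide and row terms, other FDRs, any probe, SAM and leaving out each array.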

Additional observations from a re-analysis of the deposited data

Results flagged for a closer look

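In 90 groups of arrays (the described collagens in the 6 groups), 3 had 1 array set apart from the rest by more than the 95% limit of Dixon's test, a limit that chance passes in about 1 of 20 groups. Col1a1 read 9.57 on male CLP replicate 3, where the other 4 arrays read 11.31 to 11.89, the gap being 0.75 of the group's range. Col27a1 read 8.84 on male CLP replicate 1, against 7.98 to 8.18 on the others (0.77 of the range). Col5a1 read 12.03 on male sham replicate 3, against 11.48 to 11.60 on the others (0.78 of the range). The calls of Col1a1, Col27a1 and Col5a1 in male CLP against sham held without each of these arrays.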

How the results depend on the processing

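Counts of called collagens were within 1.5 times the reported ones in all settings for male CLP against sham (9 to 12 without 1 array), male landiolol against CLP (0 without any 1 array) and both sex differences (0). Male CLP plus landiolol against sham (5) gave 3 with no filter, 4 with the slide term, 8 with the deposited table or with 2 groups fitted, 11 at an FDR of 5%, 12 with SAM, and 2 to 9 without 1 array. Female CLP against sham (2) gave 0 with the row term, 8 at an FDR of 5%, 6 with SAM and 2 to 4 without 1 array. Female landiolol against CLP (0) gave 1 with any probe or SAM and 0 to 1 without 1 array (1 without CLP replicate 5). The any-probe count comes from the dim Col4a5 probe, kept through the CLP plus landiolol arrays alone. That count is therefore a description, with no test. Female CLP plus landiolol against sham (1) gave 2 with 75th percentile scaling, the deposited table, 2 groups fitted, the trended prior or the slide term, 3 with normexp, 0 with the row term, 6 at an FDR of 5%, 5 with SAM and 1 to 5 without 1 array. The causes were not tested.

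In females, Col14a1 turned to -0.03 with 75th percentile scaling (landiolol against CLP). With the row term, Col8a1 turned to 0.05 (CLP against sham), Col4a2 to 0.14 and Col4a1 to -0.08 (landiolol against CLP), and Col4a2 to 0.14 and Col4a5 to -0.01 (CLP plus landiolol against sham). None of these was called. Leaving out 1 array turned signs of uncalled values too. In males (landiolol against CLP), Col8a1 ranged from -0.23 to 0.11, Col14a1 from -0.15 to 0.23 and Col4a1 from -0.12 to 0.13. In females (CLP against sham), Col4a2 ranged from -0.37 to 0.01 and Col8a1 from -0.60 to 0.10. In females (landiolol against CLP), Col4a2 ranged from -0.32 to 0.09, Col6a3 from -0.11 to 0.26, Col1a2 from -0.10 to 0.37, Col3a1 from -0.11 to 0.46, Col1a1 from -0.03 to 0.57, Col15a1 from -0.13 to 0.19 and Col14a1 from -0.25 to 0.18. Background limits the folds of the dim Col19a1 and Col4a5 probes to bounds, and for 1 dim probe each of Col6a6 and Col6a3 no fold is given. The groups hold different rats with 1 array each, so no paired analysis applies.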
